A study of Mus musculus with 29 samples.

Results

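The E2F family was followed in hematopoietic stem cells (HSCs) of mice, through the 10 genes E2f1, E2f2, E2f3, E2f4, E2f5, E2f6, E2f7, E2f8, Tfdp1 and Tfdp2, which were picked by symbol among 55376 gene symbols in the RNA-seq count data. The cells were sorted from bone marrow as Lin-Sca1+cKit+CD34-Flk2-CD150+ cells, and 19 RNA libraries were compared. There were 4 libraries of young wild-type HSCs (YWT), 4 of old wild-type HSCs (OWT), 4 of young Gadd45KO HSCs (YKO) and 7 of old Gadd45KO HSCs (OKO). The knockout is of Gadd45b, whose product takes part in stress signalling and active DNA demethylation, it is carried by every cell of the animal, and the labels name no drug or other agent for any group. Libraries are named by group and replicate number, so that OKO3 is the third old knockout library. The labels give no separate animal for a replicate, so the p-values measure the spread between these libraries, which may in part be technical.

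E2F proteins bind promoters of genes needed for DNA replication and mitosis and set how readily a cell leaves G1. E2f1, E2f2 and E2f3 are activators that the retinoblastoma protein holds in check, E2f4 and E2f5 act mostly as repressors together with the pocket proteins p107 and p130, E2f6 represses with Polycomb proteins, and E2f7 and E2f8 are atypical repressors that bind DNA without a Dp partner. Tfdp1 and Tfdp2 encode the Dp proteins with which E2f1 to E2f6 form dimers. In blood, E2F activity matters for the quiescence of HSCs and for the last divisions of erythroid precursors.

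The family itself holds E2F-type sites near its start sites. RefSeq start-site windows of the GRCm38.p6 assembly, which run from 250 bases before to 50 bases after a start, were found for 8 of the 10 members, 12 windows in all. They were searched on both strands for TTTCCCGC, TTTCGCGC, TTTGCCGC and TTTGGCGC, none of which contains another. A match stood in 5 of the 12 windows and in 4 of the 8 members, against 2.26% of 32851 windows of the same length. A window of E2f2, the only member called below in the edgeR fit of all 19 libraries without covariates, and the window of E2f8, the member that varied most over the libraries on the log scale, are shown whole. A second window of E2f2, at chr4:136180532-136180831, held no match of the E2F type and 1 CHR match, and is not shown. Capitals mark the match, which in E2f2 begins at base 40, with the start site as base 1, and is absent in E2f8. The window of E2f2 lies at chr4:136172024-136172323 on the plus strand and that of E2f8 at chr7:48881547-48881846 on the minus strand. The E2f2 gene as placed below starts at chr4:136172394, beyond the end of this window. The windows of E2f1 and Tfdp2 and a window of E2f3 lie wholly inside the gene as placed below, as does the second E2f2 window. Sequence at the outer start of E2f1 and Tfdp2 was therefore not searched.
E2f2: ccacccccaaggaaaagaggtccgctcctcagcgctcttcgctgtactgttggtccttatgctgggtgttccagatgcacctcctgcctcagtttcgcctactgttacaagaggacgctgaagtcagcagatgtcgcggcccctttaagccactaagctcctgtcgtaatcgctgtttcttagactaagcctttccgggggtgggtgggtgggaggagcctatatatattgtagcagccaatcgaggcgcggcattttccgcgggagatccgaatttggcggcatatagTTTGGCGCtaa
E2f8: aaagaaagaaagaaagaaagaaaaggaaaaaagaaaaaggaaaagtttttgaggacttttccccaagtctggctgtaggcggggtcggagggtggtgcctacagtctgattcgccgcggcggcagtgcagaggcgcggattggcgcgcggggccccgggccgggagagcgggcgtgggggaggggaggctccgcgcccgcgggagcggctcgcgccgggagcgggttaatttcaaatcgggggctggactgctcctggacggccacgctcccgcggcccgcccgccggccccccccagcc

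The other 3 members with a match carried it on the minus strand of their window, shown here with 11 bases on either side and in the direction of the gene. It began 11 bases before the start in E2f3, 198 bases before in E2f7 and 43 bases before in Tfdp1, where a second window held the same site.
E2f3: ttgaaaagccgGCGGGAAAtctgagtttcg
E2f7: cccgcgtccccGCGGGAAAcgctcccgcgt
Tfdp1: gggcgccgaagGCGCGAAAaggcgcgcagg

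A match is a description of these letters and shows no binding. Windows were found for 23 of 28 genes listed as targets of E2F in G1/S (replication factors and nucleotide enzymes), and of these 26 windows 11 (42.3%) held it, and among 15 windows of mitotic genes 1 did (6.67%). The CHR element TTTGAA, the letters through which the MuvB complex is known to reach mitotic promoters, stood in 10 of those 15 windows (66.7%), against 17.9% of all windows, and in 3 of the 12 windows of the family, including that of E2f8.

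Gene counts summed to 22197555 to 77970627 per library (median 57562473). After a filter on low counts 33690 genes remained, and edgeR's quasi-likelihood test was run on them with the 19 libraries together. All 10 members passed it, with 200 to 1665 reads per library for E2f2, 215 to 4432 for E2f8 and 3635 to 19436 for Tfdp1. Some libraries stand apart from their labels. Gadd45b, the targeted gene, was counted at 12.7 and 14.3 CPM (counts scaled to the TMM-normalised library size) in the libraries labelled YKO1 and YKO2, within the 7.34 to 17.5 CPM of YWT, and at 5.98 and 5.14 CPM in YKO3 and YKO4. In OKO it lay between 2.84 and 6.94 CPM, below the 10.1 to 15.5 CPM of OWT. The labels give female for every library, but 7 of them (YWT3, YWT4, OWT2, YKO3, YKO4, OKO1 and OKO5) held at least 6133 reads of 4 Y-linked genes and at most 184 of Xist. The study's methods state that mice of both sexes were used. OWT1 to OWT4 and OKO4 to OKO7 share the title prefix IB15, and the study's sample table puts them in a batch of their own, so that no batch holds WT HSCs of both ages. OKO1 and OKO3 were the 2 lowest of the 19 libraries for 7 of the 10 members, and had the highest TMM factors (1.83 and 1.41). All 12 listed HSC genes were counted in every library, and their summed level was 2682 to 6165 CPM. Cd34 and Flt3, whose products the sort excludes, were together at 75.0 to 333 CPM.

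In mm10, E2f1 lies at chr2:154559407-154569892 (minus strand), E2f3 at chr13:29906575-29986063 (minus), E2f4 at chr8:105297663-105305370 (plus), E2f5 at chr3:14578641-14606309 (plus) and E2f6 at chr12:16810963-16839742 (plus). E2f7 lies at chr10:110745439-110787384 (plus), Tfdp1 at chr8:13338751-13378448 (plus) and Tfdp2 at chr9:96196275-96323646 (plus). The values of each are counts over all exons of the gene.

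Set per kilobase of exon, so that genes can be compared, the Dp partner Tfdp1 and the repressor E2f4 led the family. Averaged over the 19 libraries Tfdp1 stood at 61.4 and E2f4 at 56.7 CPM per kb, and they took the first 2 ranks in every library, Tfdp1 being the higher of them in 14 of 19. E2f6 followed at 18.1, E2f1 at 13.0 and E2f5 at 11.8 CPM per kb. Tfdp2 had 7.40, E2f8 7.06, E2f3 3.98, E2f2 2.36 and E2f7 1.90 CPM per kb. The steps from E2f4 to E2f6 and from E2f5 to Tfdp2 held in all 19 libraries. Neighbours within the order changed places: E2f6 exceeded E2f1 in 18 libraries and E2f3 exceeded E2f2 in 17, whereas E2f1 exceeded E2f5 in 13, E2f8 exceeded E2f3 in 13, Tfdp2 exceeded E2f8 in 12 and E2f2 exceeded E2f7 in only 11. The largest change of rank was that of E2f8, which ranged from place 4 to place 10.

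**Figure D1:**
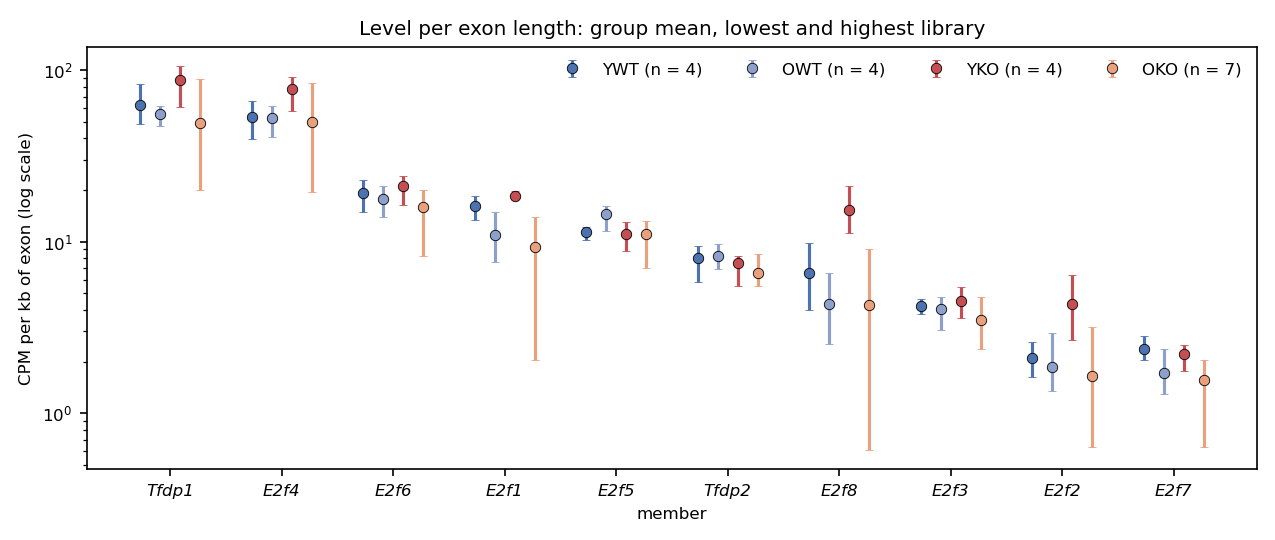
Level of each member in CPM per kb of exon (log axis), with points for the group mean and bars from the lowest to the highest library of the group. Tfdp1 and E2f4 lie above all others, and the OKO bar of E2f8 spans from 0.612 to 9.03 CPM per kb.

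The activators were compared first. E2f1, which drives S phase genes and is itself induced at G1/S, was at 58.4, 51.2, 51.5 and 42.0 CPM in YWT1 to YWT4. In YKO it was at 58.4, 55.6, 57.5 and 62.2 CPM, the narrowest spread of any group for this gene (58.4 ± 2.80, SD, n = 4). In OWT it was at 29.9, 46.8, 37.8 and 24.0 CPM, and in OKO its lowest, median and highest values were 6.43, 36.8 and 44.0 CPM. The 7 OKO libraries all lay below the 4 YKO libraries, while YWT and YKO overlapped. The values from OKO4 to OKO7 alone were 38.1 ± 6.51 CPM (SD, n = 4), and those from OKO1 to OKO3 were 17.7 ± 16.6 CPM (SD, n = 3).

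E2f2 (ENSMUSG00000018983.9, chr4:136172394-136196057 in mm10, plus strand) is an activator that is abundant in late erythroid precursors and is also known for restraining lymphocyte division. It was at 12.8, 12.1, 7.99 and 8.23 CPM in YWT and at 26.2, 31.3, 13.0 and 14.6 CPM in YKO, so that each YKO library lay above each YWT library. YKO3 and YKO4 exceeded the highest YWT library by little, and YKO1 and YKO2 by far. In OWT it was at 6.55, 8.27, 14.4 and 7.15 CPM, and in OKO its lowest, median and highest values were 3.10, 6.51 and 15.6 CPM. The highest OKO library, OKO7, lay within the range of YKO. Within each young group the 2 libraries with Y-linked reads had the lower E2f2 values. The split did not hold in the old groups. Of the libraries with Y-linked reads, OWT2 (8.27 CPM) lay above OWT1 and OWT4, and OKO5 (6.51 CPM) above OKO4 (5.88 CPM).

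E2f3, the third activator, moved little. Its values ran from 20.4 to 25.2 CPM in YWT, 16.6 to 25.8 in OWT, 19.5 to 29.7 in YKO and 12.9 to 25.9 in OKO, and the 4 groups overlapped.

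Among the repressors of the pocket protein class, E2f4, which is required for red cell production and is the main E2F of resting cells, was at 163, 139, 123 and 97.4 CPM in YWT and at 184, 141, 222 and 210 CPM in YKO. It was at 126, 136, 151 and 99.3 CPM in OWT, and in OKO at 47.9 (lowest), 132 (median) and 207 CPM (highest). YKO2 lay within the YWT range and the other 3 YKO libraries above it. E2f5 was steady in young HSCs, at 18.2 to 21.8 CPM in YWT and 15.8 to 23.1 CPM in YKO. OWT gave 28.3, 24.96, 20.5 and 28.9 CPM of E2f5, of which 3 values lay above all YWT libraries, and OKO gave 12.5 to 23.6 CPM. E2f5 shares 85 exon bases with 1810022K09Rik on the opposite strand, which had a median of 3639 reads, and the counting is not stated to have used strand, so their reads may not be separable.

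E2f6, the Polycomb partner, was at 83.7 to 130 CPM in YWT, 79.1 to 120 CPM in OWT, 92.5 to 137 CPM in YKO and 46.9 to 114 CPM in OKO. All 4 groups of E2f6 overlapped.

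The atypical repressors E2f7 and E2f8 are E2F targets themselves and often act together, but their values here were unlike. E2f7 was at 18.3, 20.1, 21.2 and 25.3 CPM in YWT, at 19.5, 22.7, 15.9 and 21.9 CPM in YKO, and at 17.1, 21.5, 11.7 and 11.9 CPM in OWT. In OKO its lowest, median and highest values were 5.76, 15.7 and 18.3 CPM, overlapping those of YKO. E2f8 (ENSMUSG00000046179.17, chr7:48866429-48881596 in mm10, minus strand) was at 53.1, 37.5, 30.1 and 21.8 CPM in YWT and at 115, 61.3, 79.6 and 76.0 CPM in YKO. Each YKO library exceeded each YWT library. In OWT E2f8 was at 15.1, 35.6, 29.3 and 13.7 CPM, and in OKO at 3.33 (lowest), 16.5 (median) and 49.2 CPM (highest), with every OKO library below every YKO library. The count of E2f8 per count of E2f7 ran from 0.861 to 2.90 in YWT, 0.886 to 2.51 in OWT, 2.71 to 5.89 in YKO and 0.436 to 2.87 in OKO. E2f8 shares 973 exon bases with Gm2788 on the opposite strand (median 483 reads), and E2f7 shares 86 with 1700020G17Rik (median 26 reads), so their counts carry the same uncertainty.

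Of the Dp partners, Tfdp1 was at 302, 217, 225 and 179 CPM in YWT and at 386, 223, 342 and 333 CPM in YKO. YKO2 again lay within the YWT range and the other 3 YKO libraries above it. In OWT Tfdp1 was at 189, 225, 222 and 172 CPM, and in OKO its lowest, median and highest values were 73.2, 188 and 323 CPM. Tfdp2 was at 81.2 to 132 CPM in YWT, 97.4 to 136 in OWT, 77.6 to 116 in YKO and 77.4 to 119 in OKO, with all groups overlapping.

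**Figure D2:**
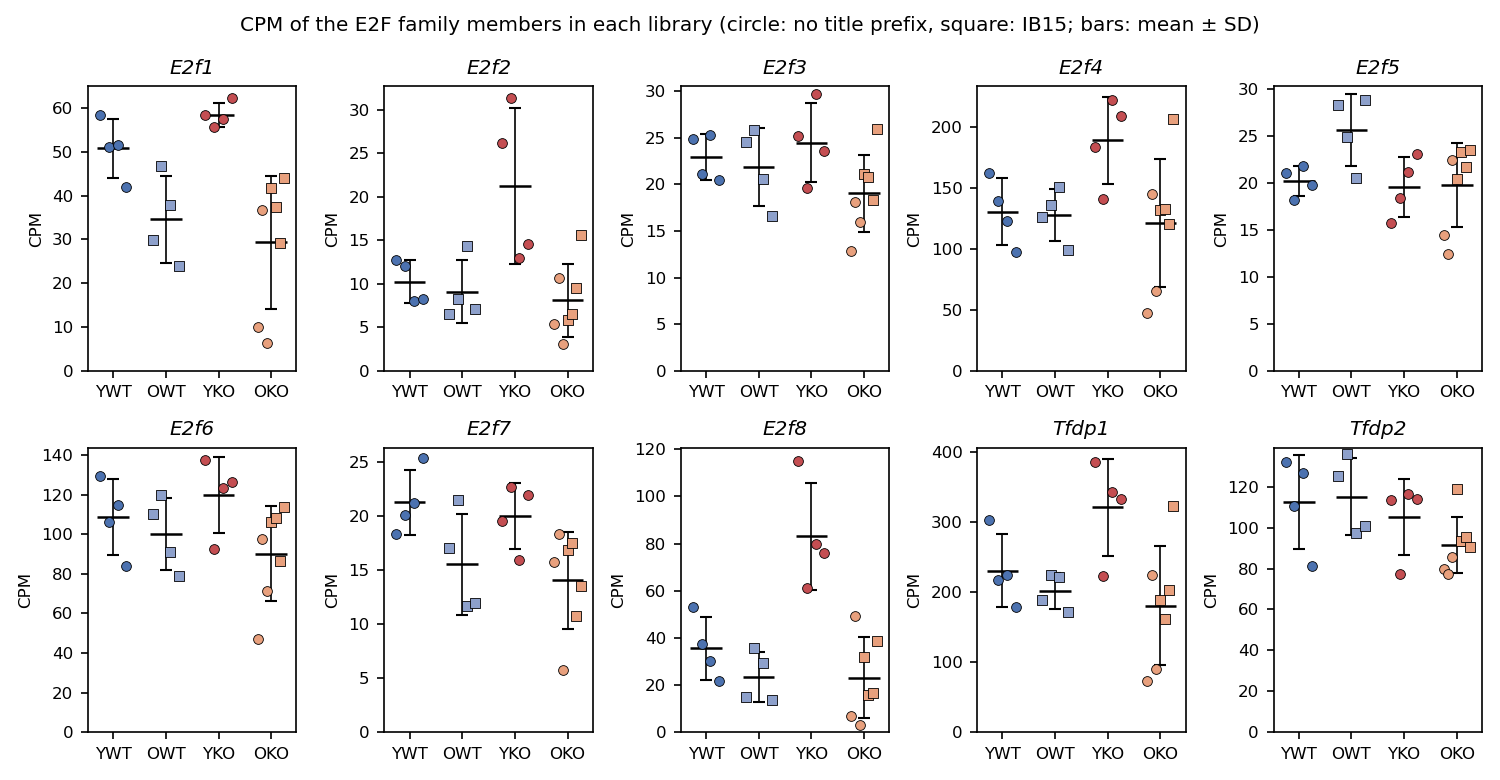
CPM of each member (vertical axis, from 0) in each library by group (horizontal axis), with circles for libraries without a title prefix, squares for those with IB15, and bars for the mean ± SD (YWT, OWT and YKO n = 4, OKO n = 7). E2f2 and E2f8 are higher in all 4 YKO libraries than in any YWT library, and E2f1 and E2f8 lower in all 7 OKO libraries than in any YKO library.

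For young HSCs, YKO was compared with YWT, the genotype being that of the labels. Gadd45b itself had a log2 fold change of -0.14 (SE 0.36) there. YKO1 and YKO2, left out of a fit below, held Gadd45b within the YWT range. A member was called if its adjusted p was under 0.05 and its fold change above 1.5, and no member was, where 0.0267% of all genes were. DESeq2 called 0 members as well (0.404% of genes), and 2 members had an unadjusted p under 0.05 (4.59% of genes). These were E2f2, with a log2 fold change of 1.05 (SE 0.40, 95% interval 0.22 to 1.89, edgeR adjusted p = 0.872), and E2f8, with 1.22 (SE 0.55, interval 0.07 to 2.37, edgeR adjusted p = 1.00). They were also the 2 members without overlap between the groups, which 5.12% of all genes showed. E2f4 followed at 0.54 (SE 0.32) and Tfdp1 at 0.48 (SE 0.33). The fitted fold changes of 7 members were above 0 and of 3 below, with a median of 0.17 against -0.02 over all genes. Without YKO1 and YKO2, the log2 fold change of E2f2 was 0.41 (edgeR adjusted p = 0.926, and between 0.241 and 1.00 over 28 alternatives) and that of E2f8 was 1.11.

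Erythroid marker sums lay above the YWT range in YKO1, YKO3 and YKO4, and B cell marker sums in YKO1 and YKO2. The summed level of 10 erythroid genes was 1785 to 4883 CPM in YKO, 699 to 2305 in YWT, 167 to 1141 in OWT and 51.5 to 2874 in OKO, and none of these genes was at 0 in any library. YKO3, YKO4 and YKO1, the YKO libraries with the 3 highest E2f8 and E2f4 values, held 4883, 4761 and 4479 CPM of erythroid genes. YKO2, the lowest for both, held 1785 CPM. The sum of 10 B cell genes was 1537 CPM in YKO2 and 840 CPM in YKO1, the 2 libraries with the highest E2f2 values of all, against 255 and 202 CPM in YKO3 and YKO4, and 226 to 662 CPM in YWT. The T cell sum was 89.9 and 137 CPM in YKO2 and YKO1, and 17.4 to 29.7 CPM in YWT, with 1 of the 7 genes at 0 in YWT2 and in OWT1. Other marker sums were not raised: that of granulocytes was 50.6 to 291 CPM in YKO and 211 to 404 CPM in YWT. For megakaryocytes the sum was 355 to 591 CPM in YKO and 439 to 636 CPM in YWT. The part of other blood cells in the E2f2 and E2f8 values was not tested. In bulk libraries, fewer cells of a type and less RNA per cell cannot be told apart.

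Aging of knockout HSCs was addressed by OKO vs YKO, where the edgeR fit of all 19 libraries made its only call in the family. E2f2 fell from 21.3 ± 8.94 CPM (SD, n = 4) to 8.09 ± 4.18 CPM (SD, n = 7), a log2 fold change of -1.39 (SE 0.34, interval -2.11 to -0.68, edgeR adjusted p = 0.0449). It was lower in 6 of 7 OKO libraries than in any YKO library. This is 1 of 10 members, where 1.29% of all genes were called. E2f8 had the larger difference, from 83.0 ± 22.8 CPM (SD, n = 4) to 23.2 ± 17.1 CPM (SD, n = 7), with a log2 fold change of -1.84 (SE 0.47, interval -2.82 to -0.86) that missed the threshold in edgeR (adjusted p = 0.0558). E2f1 had -0.99 (SE 0.35, edgeR adjusted p = 0.162) and Tfdp1 -0.83 (SE 0.29, edgeR adjusted p = 0.158). DESeq2 called 4 members, E2f1, E2f2, E2f8 and Tfdp1, where it called 6.3% of all genes. At an unadjusted p under 0.05 there were 5 members (15.8% of genes), these 4 and E2f4 at -0.64 (SE 0.28). The groups of E2f1 and E2f8 did not overlap, as for 2.6% of all genes.

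The remaining members did not pass the test in either tool. E2f7 had a log2 fold change of -0.51 (SE 0.25), E2f6 of -0.41 (SE 0.21), E2f3 of -0.36 (SE 0.19), Tfdp2 of -0.20 (SE 0.18) and E2f5 of 0.01 (SE 0.19), all in edgeR. In all, 9 members were below 0 and 1 above, with a median of -0.57, while the median over all genes was 0.23.

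The call of E2f2 was not stable. It was lost when any of 13 of the 19 libraries was left out, with adjusted p up to 0.193 without YKO1, and without YKO1 and YKO2 together its log2 fold change was -0.75 (edgeR adjusted p = 0.346), with 0 members called (0.0542% of genes). Over all 30 alternatives its log2 fold change lay between -1.77 and -0.75 and its adjusted p between 0.00352 and 0.346. That of E2f8 lay between -2.14 and -1.62, with adjusted p between 0.0125 and 0.290.

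**Figure D3:**
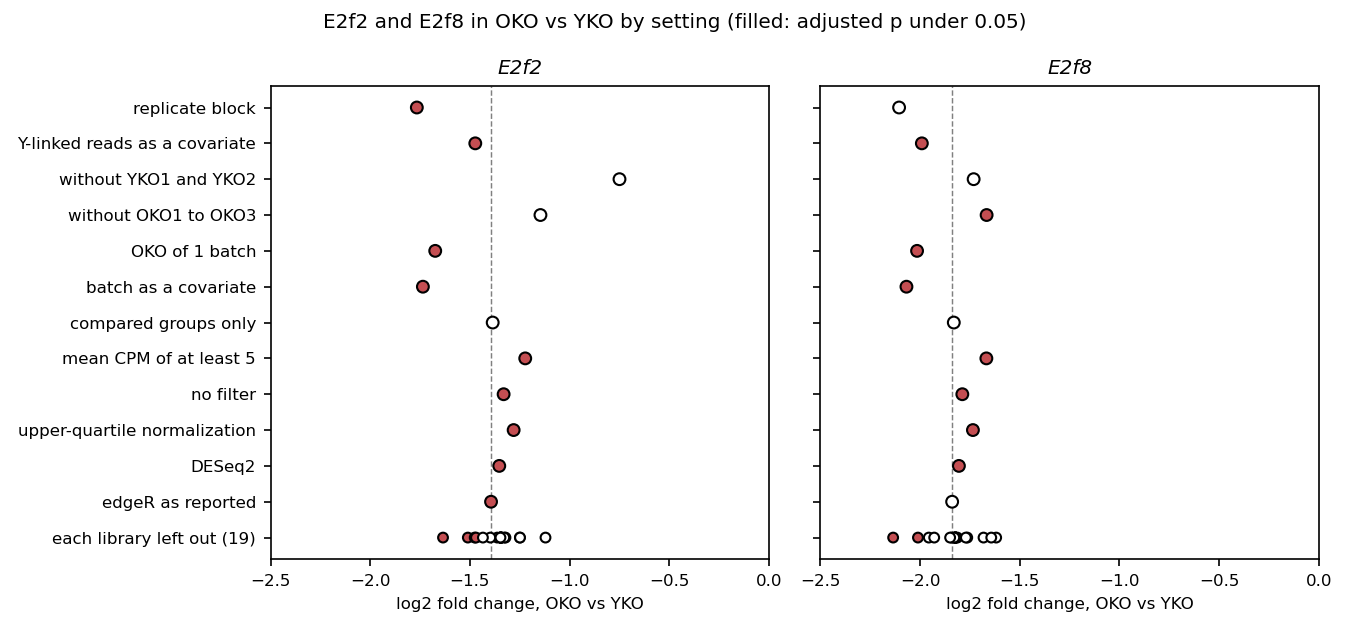
Log2 fold change of E2f2 and E2f8 in OKO vs YKO (horizontal axis) under each alternative and with each of the 19 libraries left out (vertical axis), filled where the adjusted p was under 0.05. All values lie below 0, and the open E2f2 point at -0.75 is the fit without YKO1 and YKO2.

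The OKO libraries came from both batches, and the size of the difference varied with the OKO libraries used. OKO1 and OKO3 lay far below OKO2, which has the same title form, for E2f8 and E2f1. E2f8 was at 6.85, 49.2 and 3.33 CPM in OKO1 to OKO3, and E2f1 at 9.95, 36.8 and 6.43 CPM. Against YKO, OKO1 to OKO3, which have the same title form as YKO, gave -1.67 for E2f2, -2.02 for E2f8, -1.66 for E2f1, -1.25 for Tfdp1 and -1.07 for E2f4 on the log2 scale. There 6 members were called (17.9% of all genes), and with batch as a covariate 7 were (19.1% of genes). Without OKO1 to OKO3, E2f8 was called, at -1.67 (edgeR adjusted p = 0.0353), and E2f2 was at -1.15 (edgeR adjusted p = 0.139), so that 1 member passed (0.815% of genes). The OKO libraries left in that fit all carry the prefix IB15 and those of YKO do not. Age and batch cannot be told apart there. With Y-linked reads as a covariate, E2f2 (-1.47) and E2f8 (-1.99) were called (1.83% of genes). OKO1 and OKO3, the lowest libraries for E2f8, held 147 and 51.5 CPM of erythroid genes. OKO2 and OKO7, the OKO libraries with the 2 highest E2f8 values, held 1422 and 2874 CPM. The order did not hold throughout. OKO5 held less than OKO1, 134 CPM, with E2f8 at 15.8 against 6.85 CPM. OKO7 held more than YKO2 (1785 CPM), with E2f8 at 38.9 against 61.3 CPM. B cell genes summed to 30.4 to 215 CPM over OKO. Their part in the differences was not tested.

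Aging of WT HSCs was addressed by OWT vs YWT. No member was called by edgeR (0.00297% of genes) or DESeq2 (0.401%), and none had an unadjusted p under 0.05 (4.38%). E2f8 had a log2 fold change of -0.60 (SE 0.55), E2f1 of -0.55 (SE 0.41), E2f7 of -0.45 (SE 0.29) and E2f5 of 0.34 (SE 0.22). E2f4 was at -0.03 (SE 0.32, interval -0.69 to 0.63). The median of the members was -0.15, with 2 above 0 and 8 below, and that over all genes -0.05. These groups differ in batch as well as age, and batch can be fitted only through OKO, which is in both. The batch term is thus set by OKO4 to OKO7 against OKO1 to OKO3. Among the latter, E2f1 was at 9.95 and 6.43 CPM in OKO1 and OKO3 and at 36.8 CPM in OKO2. With batch as a covariate the log2 fold change was -1.66 for E2f1, -0.98 for E2f8, -0.95 for Tfdp1, -0.80 for E2f4 and -0.09 for E2f5, and all 10 members lay below 0.

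In old HSCs, OKO was compared with OWT, and again no member was called by edgeR (0.0327% of genes) or DESeq2 (0.217%), with 0 at an unadjusted p under 0.05 (8.14%). E2f5 had -0.38 (SE 0.19), Tfdp2 -0.33 (SE 0.18) and E2f1 -0.24 (SE 0.36), and E2f8 was at -0.02 (SE 0.48, interval -1.02 to 0.99). All 10 fitted values lay below 0 (median -0.16, over all genes 0.12), but 7 of the 10 lay above 0 with upper-quartile normalization, which moved the median over all genes to 0.36, and 7 with OKO of the OWT batch alone. No direction is therefore given for the family here.

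The genotype by age interaction, which asks whether the age difference itself differed between genotypes, was called for 0 members (0% of all genes) by edgeR and for 0 by DESeq2 (0.0208% of genes). E2f2 had the single unadjusted p under 0.05 (4.62% of genes), with -1.22 (SE 0.53, interval -2.32 to -0.12, edgeR adjusted p = 0.811), followed by E2f8 at -1.23 (SE 0.73).

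**Figure D4:**
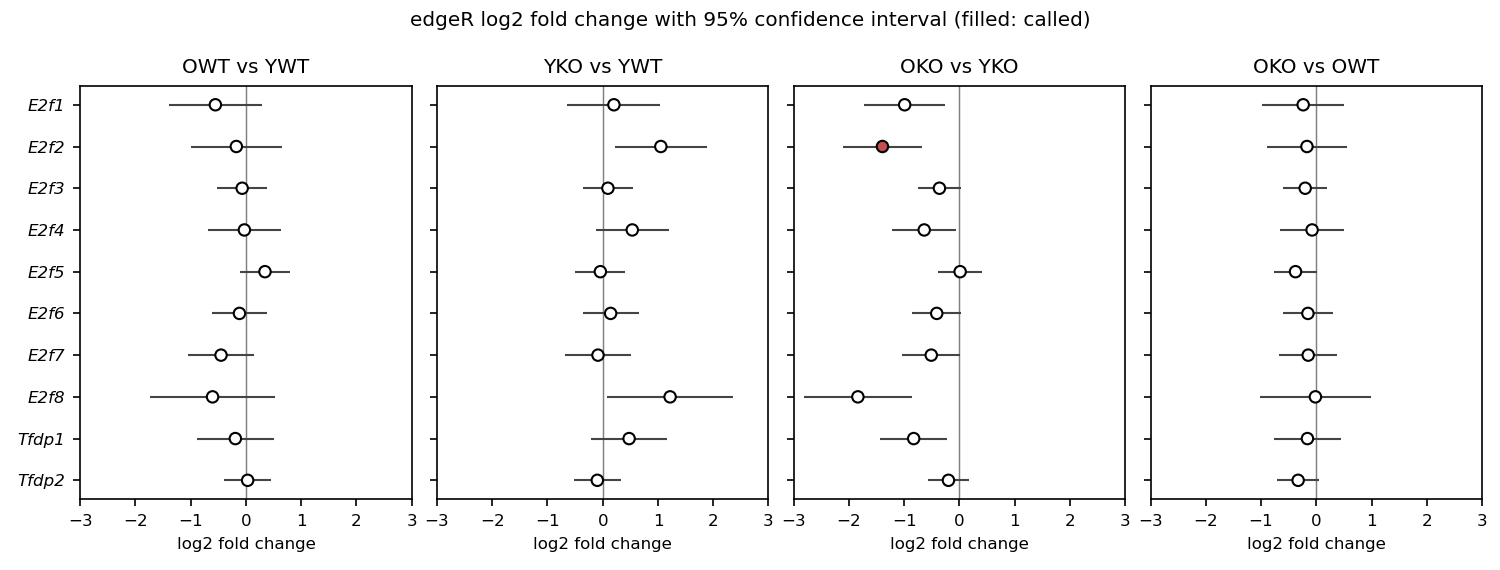
edgeR log2 fold change of each member (horizontal axis) with its 95% confidence interval in the 4 comparisons, filled where called. E2f2 in OKO vs YKO, at -1.39, is the only filled point.

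The genes on either side of the family were read from lists, and outside OKO vs YKO DESeq2 called 0 of the listed genes. Over all genes, edgeR called 1.29% and DESeq2 6.3% in OKO vs YKO. Upstream, 15 cyclins, cyclin-dependent kinases and inhibitors that set the phosphorylation of the retinoblastoma protein were all tested, and 0 were called in any comparison by edgeR. In OKO vs YKO, Cdkn1a, which encodes the inhibitor p21, had the highest log2 fold change of the list, 0.77 (SE 0.29), and was called by DESeq2 alone. Cdkn2b, which encodes p15, had 0.42 (SE 0.88), while Ccne1 and Ccne2, the cyclin E genes, had the lowest, -0.83 (SE 0.63) and -0.68 (SE 0.37). In YKO vs YWT, Ccne1 was at 0.89 (SE 0.73) and Cdk4 at 0.25 (SE 0.31), with Cdkn2b at -1.07 (SE 0.99) and Cdkn1c at -0.49 (SE 0.33). At an unadjusted p under 0.05 there were 2 of the 15 in OKO vs YKO (15.8% of all genes) and 3 in OKO vs OWT (8.14%). There was 1 in OWT vs YWT (4.38%) and 0 in YKO vs YWT (4.59%).

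Of 9 pocket protein and MuvB genes, 0 were called by edgeR in any comparison. Rb1, which encodes the retinoblastoma protein, was at 0.08 (SE 0.17) and Rbl2, which encodes p130, at 0.19 (SE 0.19) in OKO vs YKO, and Rbl2 was at -0.16 (SE 0.21) in YKO vs YWT. Mybl2, the B-Myb gene and an E2F target, was the lowest of the list in OKO vs YKO (-1.19, SE 0.42) and the highest in YKO vs YWT (0.81, SE 0.48), and DESeq2 called it in the former. Rbbp4 had -0.59 (SE 0.24) in OKO vs YKO and 0.27 (SE 0.28) in YKO vs YWT, and Lin9 had -0.09 (SE 0.25) in YKO vs YWT.

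Of 28 G1/S targets all were tested, and 0 were called by edgeR in any comparison, although their fitted values lay on the same side. In YKO vs YWT 28 were above 0 (median 0.41, over all genes -0.02). DESeq2 called 0 of them there (0.404% of all genes), and 0 were at an unadjusted p under 0.05 (4.59%). The highest were Mcm10 (0.83, SE 0.49) and Fen1 (0.74, SE 0.45), which act in replication initiation and Okazaki fragment processing, and the lowest was Pola1 (0.03, SE 0.29). In OKO vs YKO 28 were below 0 (median -0.89, over all genes 0.23). DESeq2 called 15 of them (6.3% of all genes), and 24 were at an unadjusted p under 0.05 (15.8%). Mcm10 (-1.35, SE 0.42) and Fen1 (-1.31, SE 0.39) were then the lowest, and Gins2 (-0.32, SE 0.21) and Pola1 (-0.51, SE 0.25) the highest. With batch as a covariate 24 of the 28 were called in OKO vs YKO (19.1% of all genes). Without OKO1 to OKO3, where age and batch cannot be told apart, 0 were called (0.815% of all genes), with a median of -0.59. In OWT vs YWT 28 lay below 0 (median -0.35, and -1.24 with batch as a covariate), with 1 at an unadjusted p under 0.05 (4.38% of all genes). In OKO vs OWT 25 lay below 0, but only 13 with upper-quartile normalization. With OKO of the OWT batch alone 28 lay above 0 (median 0.17), as with batch as a covariate (median 0.14).

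Of 20 mitotic genes of G2/M, 0 were called by edgeR in any comparison. In YKO vs YWT 19 were above 0 (median 0.40), led by Aurkb, a mitotic kinase, at 0.78 (SE 0.54) and Plk1 at 0.67 (SE 0.61), with Kif11 at -0.05 (SE 0.47) and Cenpf at 0.01 (SE 0.46). In OKO vs YKO 20 were below 0 (median -1.05), with 13 at an unadjusted p under 0.05 (15.8% of all genes) and 4 called by DESeq2 (6.3%). Mki67, the proliferation marker, had -1.35 (SE 0.45) and Aurkb -1.32 (SE 0.46), and Bub1 (-0.35, SE 0.46) and Kif11 (-0.52, SE 0.41) were nearest to 0. With batch as a covariate 10 of the 20 were called there (19.1% of all genes). Without OKO1 to OKO3, where age and batch cannot be told apart, 0 were called (0.815% of all genes), with a median of -0.67. YKO and OKO served in more than 1 of these comparisons, and the values of the lists are given side by side for each.

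Around E2f6, 0 of 10 genes of the Polycomb complex PRC1.6 and 0 of 5 tested germline genes known to be silenced through E2f6 were called by edgeR in any comparison. L3mbtl2, a subunit of that complex, had -0.73 (SE 0.22) in OKO vs YKO, where DESeq2 called it, and 0.53 (SE 0.26) in YKO vs YWT. Cbx3 had -0.46 (SE 0.25), Rybp 0.07 (SE 0.19) and Max 0.36 (SE 0.23) in OKO vs YKO, while Rybp had -0.44 (SE 0.22), Mga -0.32 (SE 0.31) and Pcgf6 0.24 (SE 0.23) in YKO vs YWT. The 6 germline genes summed to 1.25 to 11.1 CPM per library. Stag3, a meiotic cohesin subunit, had 1.07 (SE 0.63) in YKO vs YWT and -1.11 (SE 0.54) in OKO vs YKO, and Smc1b had 0.63 (SE 0.74) and -0.16 (SE 0.65). Tuba3a was at -0.25 (SE 0.89) and Taf7l at 0.02 (SE 0.89) in YKO vs YWT, and in OKO vs YKO Taf7l was at 0.74 (SE 0.81) and Slc25a31 at 0.49 (SE 1.32).

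**Figure D5:**
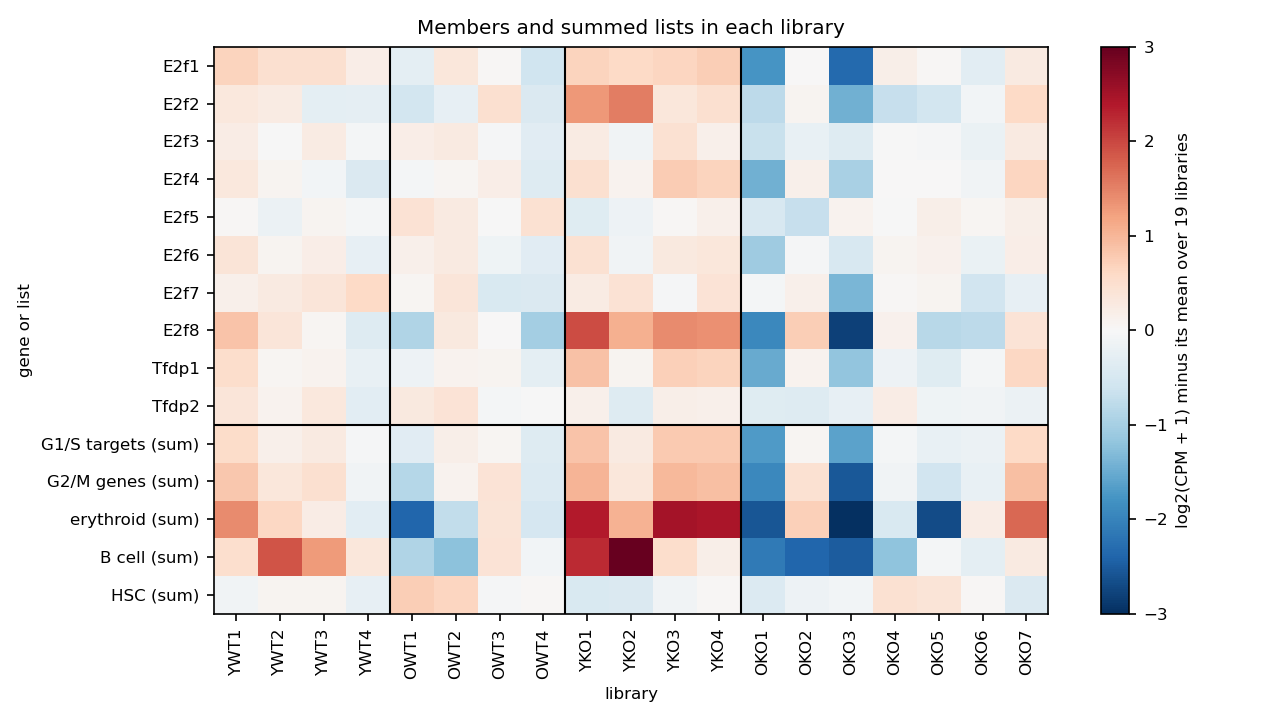
log2(CPM + 1) of each member, and of the summed CPM of 5 lists below the line, minus its mean over the 19 libraries (colour scale from -3 to 3), with libraries in columns. YKO1, YKO3 and YKO4 are high for E2f8 and erythroid genes, YKO1 and YKO2 for E2f2 and B cell genes, and OKO1 and OKO3 low for E2f1, E2f8 and the G1/S and G2/M sums.

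The genes whose pattern over the 19 libraries was most like that of a member were found by the root mean square difference of centred log2(CPM + 1) among 12323 genes with a mean of at least 5 CPM. For E2f1 they were Uhrf1 (0.19), a maintenance methylation factor, Mcm2 (0.22), a subunit of the replicative helicase, and Bub1b (0.22), a spindle checkpoint kinase, where the variation of E2f1 itself was 0.80. For E2f8 they were Timeless (0.33), which protects replication forks, Aurkb (0.33) and Mcm10 (0.35), against 1.15 for E2f8. For E2f2 they were Gga2 (0.31), an adaptor of Golgi transport, Ung (0.34), the uracil DNA glycosylase, and Zdhhc14 (0.34), a palmitoyltransferase, against 0.70. For E2f7 they were Psrc1 (0.24), Phf19 (0.28), a Polycomb accessory protein, and Tube1 (0.29), epsilon tubulin, against 0.45. The 4 members had no nearest gene in common, and the 19 libraries share batch and depth differences.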

How the data were processed

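RNA-seq was available for 19 libraries, prepared with the SMART-Seq v4 kit. The authors deposited raw read counts per gene symbol, without normalization, after trimming with Trim Galore 0.4.3 and mapping to mm10 by STAR (index built on GENCODE M22), using featureCounts, whose strand setting is not given in the sources used here. The methylation samples were not analysed here. Libraries were joined by symbol. Counts were filtered with filterByExpr (minimum count 10), scaled by TMM and tested with the quasi-likelihood test of edgeR 4.0.16 in R 4.3.3, with 1 mean per group, no covariate and Benjamini-Hochberg adjustment over 33690 genes. Genes were called where the adjusted p was under 0.05 and the fold change above 1.5, and the interaction on the adjusted p alone. The study's methods name DESeq2, which was the alternative here (version 1.42.0). Positions and exon lengths came from GENCODE M21, in which 54510 of the 55376 symbols were found, and windows from RefSeq. The lowest count of a member in any library was 200 reads (E2f2).

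The text names all members, each listed gene that was called and, in YKO vs YWT and OKO vs YKO, the 2 highest and 2 lowest of each list, and the 3 genes nearest to E2f1, E2f2, E2f7 and E2f8. The value of 1 gene that this rule names is not reported here. The members and lists were chosen with earlier results of these data known. Alternatives were DESeq2, no filter on counts, a filter at a mean of 5 CPM, upper-quartile normalization, a fit of only those groups compared, a batch covariate, OKO taken from 1 batch, no threshold on the fold change, a replicate block and each library left out. Fits without OKO1 to OKO3, without YKO1 and YKO2, and with Y-linked reads (over 100) as a covariate were chosen after seeing the data. The procedure was tested on simulated data.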

Additional observations from a re-analysis of the deposited data

Results flagged for a closer look

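Of 40 groups of values (10 members in 4 groups), 1 held a library far from the others. Tfdp2 in YKO2 was at 77.6 CPM, and the nearest of the other 3 YKO libraries was at 113 CPM, a gap of 0.924 of the whole range of the group. Chance alone takes about 1 in 20 groups past the limit used for such gaps. YKO2 also had the lowest Tfdp1, E2f4, E2f6 and E2f8 values of YKO and the highest B cell sum, and it is 1 of the 2 YKO libraries whose Gadd45b level lay within the range of YWT.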

How the results depend on the processing

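Outside OKO vs YKO no member was called under any alternative. In OKO vs YKO 1 was called (1.29% of all genes). The count was 4 with DESeq2 (6.3%), 2 with upper-quartile normalization (3.2%), 2 with no filter (1.18%) and 2 with a mean CPM of at least 5 (12.1%). It was 0 in the compared groups only (0.377%), 7 with batch as a covariate (19.1%) and 6 with OKO of 1 batch (17.9%). It was 0 without YKO1 and YKO2 (0.0542%), 2 with Y-linked reads as a covariate (1.83%) and 1 on the adjusted p alone. Without OKO1 to OKO3 it was 1 (0.815%), E2f8 and not E2f2. Leaving out each library gave 0 to 3, with 0 in 13 of 19 cases and 3 without OKO7 (5.47% of genes). Of the members' fold changes, 380 kept direction and call under the alternatives that keep to whole settings, 19 gained a call, 3 lost it (E2f2) and 48 turned sign. Upper-quartile scaling moved the median over all genes from 0.23 to 0.43 in OKO vs YKO and from 0.12 to 0.36 in OKO vs OWT. Where genes under a mean CPM of 5 were left out, the medians over the remaining 12363 were 0.03 in both comparisons.

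The values that turned sign, all on the log2 scale and in none of them a call, were as follows. With DESeq2 they were E2f4 0.018 and E2f8 0.079 in OKO vs OWT and E2f7 0.051 in the interaction. With upper-quartile normalization they were Tfdp2 -0.020 in OWT vs YWT, E2f2 0.011, E2f3 0.014, E2f4 0.094, E2f6 0.045, E2f7 0.10, E2f8 0.17 and Tfdp1 0.013 in OKO vs OWT, and E2f7 0.18 in the interaction. With no filter they were E2f8 0.00065 in OKO vs OWT and E2f7 0.038 in the interaction. With a mean CPM of at least 5 they were Tfdp2 -0.024 in OWT vs YWT and 0.046 in OKO vs YKO, E2f2 0.027, E2f3 0.043, E2f4 0.11, E2f6 0.071, E2f7 0.15, E2f8 0.18 and Tfdp1 0.027 in OKO vs OWT, and E2f7 0.28 and Tfdp2 0.070 in the interaction. In the compared groups only it was E2f8, 0.032 in OKO vs OWT. With batch as a covariate they were E2f5 -0.090 and Tfdp2 -0.27 in OWT vs YWT, E2f5 -0.25 in OKO vs YKO, and E2f1 0.14, E2f2 0.043, E2f4 0.21, E2f6 0.051, E2f8 0.14 and Tfdp1 0.12 in OKO vs OWT. With OKO of 1 batch they were E2f5 -0.19 in OKO vs YKO, and E2f1 0.17, E2f2 0.073, E2f3 0.0080, E2f4 0.24, E2f6 0.080, E2f8 0.17 and Tfdp1 0.15 in OKO vs OWT. Without YKO1 and YKO2 they were E2f5 0.11 and Tfdp2 0.015 in YKO vs YWT, E2f5 -0.14 in OKO vs YKO and E2f7 0.043 in the interaction. The cause was not tested.

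With each library left out in turn, 13 fold changes crossed 0. In OWT vs YWT E2f3 ran from -0.14 to 0.020, E2f4 from -0.14 to 0.095 and Tfdp2 from -0.096 to 0.12. In YKO vs YWT E2f3 ran from -0.047 to 0.19, E2f5 from -0.17 to 0.021, E2f7 from -0.19 to 0.0086 and Tfdp2 from -0.23 to 0.024. E2f5 ran from -0.047 to 0.16 in OKO vs YKO. In OKO vs OWT E2f2 ran from -0.41 to 0.14, E2f4 from -0.25 to 0.070, E2f7 from -0.24 to 0.047 and E2f8 from -0.31 to 0.23. E2f7 ran from -0.16 to 0.16 in the interaction.

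Replicate numbers did not pair libraries: deviations from the group means correlated with a median r of -0.07 over 24 pairs of the same number (-0.49 to 0.42) and 0.02 over 108 pairs of different numbers. With replicate number as a block 1 member was called in OKO vs YKO (5.27% of genes), and E2f5 turned to -0.18 there. The replicate block moved the count of called genes there from 434 to 1774.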

Other observations

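Marker sums of other blood cells also differed between the groups. The summed level of 9 granulocyte genes was 609 to 897 CPM in OWT, above the 211 to 404 CPM of YWT and the 50.6 to 291 CPM of YKO, while OKO ranged from 203 to 607 CPM. The plasma cell sum reached 26682 CPM in YWT2 and 13599 CPM in YKO2, against medians of 1791 in YWT and 1122 CPM in OKO. YWT2 lay within the range of the other YWT libraries for E2f1 (51.2 CPM) and E2f8 (37.5 CPM). The megakaryocyte sum was highest in OWT2, at 1135 CPM. OWT2 was also the highest OWT library for E2f1, E2f3, E2f6, E2f7, E2f8, Tfdp1 and Tfdp2. For E2f2 and E2f4 that library was OWT3, and for E2f5 OWT4.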
